A study of Homo sapiens with 8 samples.

Results

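The BCL2 family of apoptosis regulators was followed at the RNA level in HEL cells, an established human erythroleukaemia line that carries an activating mutation of the JAK2 kinase. The 10 members were chosen by name and are BCL2, BCL2L1 and MCL1 (guardians), BCL2L11, BMF, BBC3, PMAIP1 and BID (BH3-only proteins), and BAX and BAK1 (effectors). Each was represented by the probe set with the highest mean among those annotated to that gene alone, and in fact every one of the 10 had 1 such probe set. They were taken from 17958 genes with a probe set of their own, and all 10 were among the 12570 genes tested.

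HEL cells were harvested 48 h after treatment with DMSO only (the control), 0.5 µM of the JAK2 inhibitor LY2784544, 20 µM of the telomerase inhibitor GRN163L, which is an oligonucleotide, or both agents. The labels do not restate the doses for the combination, nor say whether cells given GRN163L alone also received DMSO. If they did not, GRN163L and the lack of DMSO cannot be told apart. Each of the 4 groups holds 2 arrays, 1 from each of 2 experiments made apart, and all 8 arrays come from this 1 line. None of the 8 arrays comes from cells given a control oligonucleotide, and the p-values rest on the spread between the 2 cultures of each group, which may be partly technical.

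Proteins of the BCL2 family decide whether the mitochondrial outer membrane is opened during apoptosis. Effectors form pores in that membrane and release cytochrome c, guardians hold the effectors and the BH3-only proteins in check, and BH3-only proteins relay stress and growth factor withdrawal by binding guardians or by activating effectors. In blood cells cytokine receptors and JAK-STAT signalling are known to sustain guardian genes such as BCL2L1, and many BH3-only proteins are regulated by transcription as well as by modification of the protein.

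On these arrays BMF was the only member that passed the test, as higher, with LY2784544. BCL2 was the only member that passed it, as lower, with the combination. Other members moved as well without passing. BMF was about 2.37-fold higher with LY2784544 than in control, and with the combination it was near its control level. GRN163L alone changed no member past the test. A fit that takes the experiment as a block also called MCL1 and BAK1 as lower with the combination. The BCL2 call lay at the edge of the threshold, and both calls were lost under several other settings of the analysis, which are given beside each result.

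Values are log2 signals from robust multi-array averaging (RMA), 1 per array, so that 1 unit is a factor of 2, and levels of different genes are not compared with each other. A gene is said to have changed, or to be called, where the Benjamini-Hochberg adjusted p of limma's moderated test over the 12570 genes lay below 0.05. Because the experiment number pairs the arrays, a blocked fit, with the experiment as a further term, is given where it changes a call. The median of the tested genes lay between 7.23 and 7.51 on the 8 arrays. It was lowest on the LY2784544 and combination arrays of experiment 1, at 7.33 and 7.23, so that results are also given without these arrays. Setting every array to 1 median would move a difference from control up by 0.1025 for LY2784544 and by 0.175 for the combination, and down by 0.015 for GRN163L. Markers of the line's type were present. All 8 erythroid markers with a probe set of their own, such as GATA1 and KLF1, lay above the filter on dim genes (4.37 on the log2 scale), as did 7 of 8 megakaryocyte markers, 3 of 6 of neutrophils and monocytes, 4 of 6 of fibroblasts and epithelium, 0 of 3 B cell markers and 2 of 5 T cell markers. The median of the erythroid markers lay between 10.03 and 10.49 on the 8 arrays, and none of the 8 was called in any comparison. Of the 7 megakaryocyte markers tested, 1 was called with LY2784544 and 2 with the combination against control, all higher, while the median over the list lay between 9.035 and 9.9 on the 8 arrays. PPBP, a platelet chemokine, was 2.52 higher with LY2784544 (limma adjusted p = 0.00371) and 3.135 higher with the combination (limma adjusted p = 0.00119), and PF4, another, 1.10 (limma adjusted p = 0.113, and 0.0290 with the block) and 1.915 (limma adjusted p = 0.0123). THBS1 was at 0.845 with the combination (limma adjusted p = 0.333, and 0.0205 with the block). Of the 4 tested markers of fibroblasts and epithelium only PDGFRB passed, and it fell with LY2784544 (-0.985, limma adjusted p = 0.0443) and with the combination (-0.84, limma adjusted p = 0.0449). The part of these marker changes in the results on the members was not tested. In a culture, fewer cells that express a gene and less RNA per cell cannot be told apart.

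The promoters of the only called members, BMF and BCL2, are shown because their values carry the results. They are the 250 bases before an annotated start of transcription, from RefSeq on GRCh38.p14, and capitals mark matches to the motifs searched. BMF lies on the minus strand with this window at chr15:40108880-40109129, and a further annotated BMF start lies downstream. BCL2 lies on the minus strand with its window at chr18:63319770-63320019. That window lies inside the annotated gene, whose outer end is at 63320090, so it precedes an internal start. The sequence before the outermost BCL2 start was not searched.
BMF: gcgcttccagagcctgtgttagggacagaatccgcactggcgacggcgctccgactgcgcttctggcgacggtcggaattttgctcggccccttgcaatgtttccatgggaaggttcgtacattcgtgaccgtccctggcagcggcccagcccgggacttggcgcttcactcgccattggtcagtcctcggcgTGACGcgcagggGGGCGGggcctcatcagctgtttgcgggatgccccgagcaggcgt
BCL2: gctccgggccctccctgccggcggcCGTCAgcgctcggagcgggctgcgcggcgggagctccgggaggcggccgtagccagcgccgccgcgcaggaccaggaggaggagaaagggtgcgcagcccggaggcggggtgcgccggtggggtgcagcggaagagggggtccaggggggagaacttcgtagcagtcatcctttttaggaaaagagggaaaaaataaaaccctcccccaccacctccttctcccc
The search used 6 motifs, each read on both strands. For ATF/CREB factors the letters were TGACG, part of their longer site. These were found once in the BMF window, 57 bases before the start, and once in the BCL2 window, 225 bases before it, and they stand in 21.2% of all 35116 promoter windows of this length. For the GC box the letters were GGGCGG, found once in the BMF window and in 42.6% of all windows. For FOXO factors the letters were GTAAACA. Among the members only the BCL2L11 window held them, 223 bases before the start, and 2.98% of all windows do. For STAT factors the letters were TTCNNNGAA, which 6.57% of all windows hold and none of the 15 windows of the 9 members in the promoter table. MCL1 is not listed there. For GATA factors the letters were AGATAA, held by 9.17% of all windows and by no window of a member. For HIF the letters were ACGTG, held by 18.5% of all windows and by neither window shown, and these can share up to 3 letters with the ATF/CREB motif. A match is a description of the sequence and no binding was measured.

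**Figure D1:**
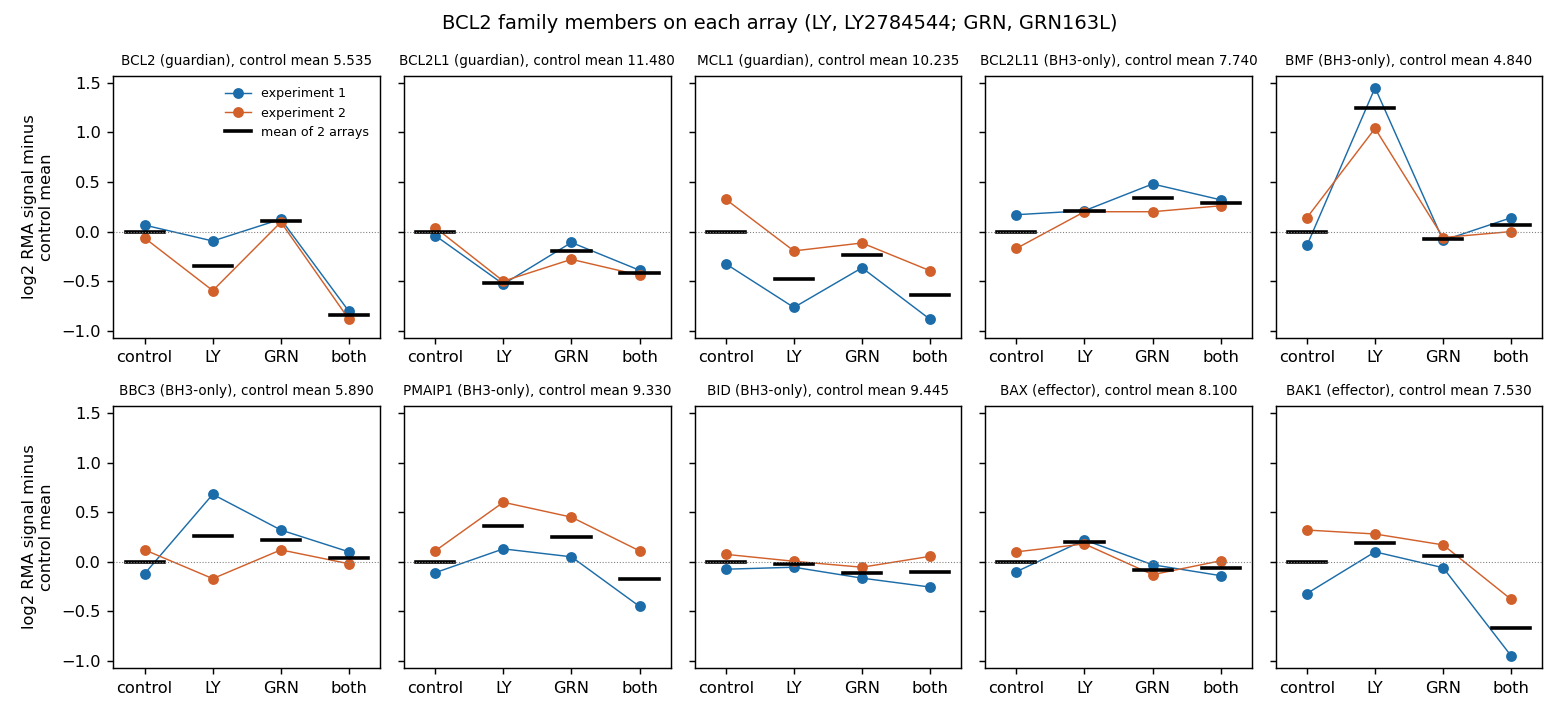
Log2 RMA signal of each of the 10 members minus its control mean (y axis) in the 4 groups (x axis). Points are single arrays joined within an experiment, bars are means of 2 arrays, and the panel titles give each control mean. BMF is high on both LY2784544 arrays, and BCL2 is low on both combination arrays, while MCL1, PMAIP1, BID and BAK1 are higher in experiment 2 than in experiment 1 in all 4 groups.

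Among the guardians, BCL2, the founding member of the family, was at 5.60 and 5.47 in control (experiments 1 and 2), 5.44 and 4.94 with LY2784544, 5.66 and 5.63 with GRN163L, then 4.73 and 4.65 with the combination. Both combination arrays lay below all 6 others. The mean fell from 5.535 ± 0.09 to 4.69 ± 0.06 (SD, n = 2) with the combination, a log2 difference of -0.845 (SE 0.19, limma adjusted p = 0.0492), and the difference was -0.87 within experiment 1 and -0.82 within experiment 2. The combination mean lay near the filter level (4.37), in the lower part of the signal range. With LY2784544 alone BCL2 was at -0.345 against control (SE 0.19, limma adjusted p = 0.494), and with GRN163L alone at 0.11 (limma adjusted p = 0.995). Neither agent alone was called. The combination against GRN163L gave -0.955 (SE 0.19, limma adjusted p = 0.0790), which passed with the experiment as a block (limma adjusted p = 0.0324). The combination against LY2784544 gave -0.50 (limma adjusted p = 0.301).

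The fall of BCL2 with the combination kept its direction in all 18 alternatives that tested it, between -0.91 and -0.67, and was called in 6 of them, with an adjusted p from 0.0195 with the experiment as a block to 0.176 without the control array of experiment 1. It was not called after centring the arrays on 1 median (-0.67, limma adjusted p = 0.105), nor without either GRN163L array (-0.845, limma adjusted p = 0.0944 for each). The call was also lost without the control array of experiment 2 (-0.91, limma adjusted p = 0.149) and without the combination array of experiment 1 (-0.885, limma adjusted p = 0.167) or 2 (-0.805, limma adjusted p = 0.0946). When both arrays of experiment 1 that had received LY2784544 were left out, it was -0.885 (limma adjusted p = 0.0826).

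BCL2L1 encodes BCL-XL, the guardian on which erythroid cells are known to rely. It was at 11.44 and 11.52 in control, 10.95 and 10.98 with LY2784544, 11.37 and 11.20 with GRN163L, then 11.09 and 11.04 with the combination. On the values as deposited, the 4 arrays that had received LY2784544, alone or in the combination, were the 4 lowest. This order is not kept once each array's median is taken off. Its difference from control was -0.515 with LY2784544 (SE 0.15, limma adjusted p = 0.162) and -0.415 with the combination (SE 0.15, limma adjusted p = 0.143), with 95% intervals from -0.85 to -0.18 and from -0.75 to -0.08 before adjustment. Neither difference passed in the plain or the blocked fit. After centring the arrays on 1 median they were -0.4125 (limma adjusted p = 0.332) and -0.24 (limma adjusted p = 0.384). Between the combination and LY2784544 the difference was 0.10, with a 95% interval from -0.24 to 0.44.

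MCL1, a guardian with a short-lived protein, was at 9.91 and 10.56 in control, 9.47 and 10.04 with LY2784544, 9.87 and 10.12 with GRN163L, then 9.35 and 9.84 with the combination. The array of experiment 2 was the higher one in each group, and within each experiment the combination array was the lowest of the 4. The combination was at -0.64 against control (SE 0.28, limma adjusted p = 0.220), by -0.56 and -0.72 within the experiments. With the experiment as a block, the only 1 of 19 alternatives that called it, this difference passed (SE 0.15, limma adjusted p = 0.0359). No other alternative has a term for the experiment. Leaving out 1 array moved it to between -0.965 (without the control array of experiment 1) and -0.315 (without that of experiment 2). These fits leave the experiments unbalanced without a term for them, so the range also holds the difference between experiments. LY2784544 alone was at -0.48 (limma adjusted p = 0.530, and 0.143 with the block) and GRN163L alone at -0.24 (limma adjusted p = 0.995). After centring the arrays on 1 median the combination's difference was -0.465 (limma adjusted p = 0.303).

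Seen as a class, the 3 guardians all had negative differences with LY2784544 (median -0.48, against -0.04 over all genes tested) and with the combination (median -0.64, against -0.065 over all genes), of which only that of BCL2 with the combination was called. With GRN163L their median was -0.195, against 0.005 over all genes tested.

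Of the BH3-only members, BMF encodes a protein known to be sequestered on the cytoskeleton and freed by loss of attachment. It was at 4.70 and 4.98 in control, 6.29 and 5.88 with LY2784544, 4.75 and 4.78 with GRN163L, then 4.98 and 4.84 with the combination. Both LY2784544 arrays stood above all 6 others, which lay within 0.28 of each other. The mean rose from 4.84 ± 0.20 to 6.085 ± 0.29 (SD, n = 2), a log2 difference of 1.245 (SE 0.19, limma adjusted p = 0.0192), and was higher in both experiments, by 1.59 and 0.90. BMF was the only 1 of 10 members called in this comparison, in which 1.27% of all genes tested were called. Its control level lay 0.47 above the filter level, in the lower part of the signal range.

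In the combination BMF lay near its control level. It was 0.07 above control (SE 0.19, limma adjusted p = 0.855) and at -1.175 against LY2784544 (SE 0.19, limma adjusted p = 0.0503), by -1.31 and -1.04 within the experiments. That comparison with LY2784544 missed the threshold and passed with the experiment as a block (limma adjusted p = 0.0289). The interaction, which is the difference of the combination from LY2784544 minus that of GRN163L from control, was -1.10 for BMF (SE 0.26, limma adjusted p = 0.731, and 0.409 with the block), so that a departure from additive effects did not pass. GRN163L alone was at -0.075 against control, with a 95% interval from -0.50 to 0.35.

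The rise of BMF with LY2784544 lay between 1.04 and 1.45 in all 18 alternatives that tested it and was called in 11 of them, with an adjusted p from 0.0131 with the experiment as a block to 0.151 without the control array of experiment 1. It also lost its call without the control array of experiment 2 (1.385, limma adjusted p = 0.0830), without the LY2784544 array of experiment 1 (1.04, limma adjusted p = 0.101), and without either GRN163L array (1.245, limma adjusted p = 0.0601 for each). When both arrays of experiment 1 that had received LY2784544 were left out, the rise was 1.04 (limma adjusted p = 0.0730). Fitting the control and LY2784544 arrays only gave 1.245 (limma adjusted p = 0.0622).

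BCL2L11 encodes BIM, an activator of the effectors that growth factor signalling is known to hold down. It was at 7.91 and 7.57 in control, 7.95 and 7.94 with LY2784544, 8.22 and 7.94 with GRN163L, then 8.06 and 8.0 with the combination. All 6 treated arrays were above both controls. The differences from control were 0.205, 0.34 and 0.29 for LY2784544, GRN163L and the combination, and none passed (limma adjusted p = 0.681, 0.995 and 0.356). For the combination the 95% interval ran from -0.11 to 0.69.

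PMAIP1 encodes NOXA, a BH3-only protein that binds MCL1. It was at 9.22 and 9.44 in control, 9.46 and 9.93 with LY2784544, 9.38 and 9.78 with GRN163L, then 8.88 and 9.44 with the combination. Each agent alone was higher than control within both experiments, and the combination was not. Against control LY2784544 was at 0.365 (limma adjusted p = 0.601), GRN163L at 0.25 (limma adjusted p = 0.995) and the combination at -0.17 (limma adjusted p = 0.718). The interaction was -0.785 (SE 0.35, limma adjusted p = 0.999), of -0.74 and -0.83 within the experiments.

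BBC3 encodes PUMA, a BH3-only protein known as a p53 target. It was at 5.77 and 6.01 in control, 6.57 and 5.72 with LY2784544, 6.21 and 6.01 with GRN163L, then 5.99 and 5.87 with the combination. The experiments went opposite ways with LY2784544, by 0.80 and -0.29, and its mean difference of 0.255 did not pass (limma adjusted p = 0.740). BID, which links death receptors to mitochondria after cleavage by caspase 8, had the smallest range of the 10 members. It was at 9.37 and 9.52 in control, 9.39 and 9.45 with LY2784544, 9.28 and 9.39 with GRN163L, then 9.19 and 9.50 with the combination, a range of 0.33 over the 8 arrays. Its differences from control lay between -0.11 and -0.025, and none passed.

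The 5 BH3-only members had a median difference of 0.255 with LY2784544, 0.22 with GRN163L and 0.04 with the combination, against -0.04, 0.005 and -0.065 over all genes tested. Each of these medians is the value of BBC3, whose experiments went opposite ways with LY2784544. By sign 4 members were higher and 1 lower with LY2784544, and 3 higher and 2 lower with GRN163L and with the combination. Of the 5 members, BMF with LY2784544 was the only one called.

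The effectors differed from each other. BAK1, which resides at the outer membrane, was at 7.21 and 7.85 in control, 7.63 and 7.81 with LY2784544, 7.47 and 7.70 with GRN163L, then 6.58 and 7.15 with the combination. On the values as deposited, both combination arrays lay below all 6 others, an order not kept once each array's median is taken off. The combination was at -0.665 against control (SE 0.26, limma adjusted p = 0.173), by -0.63 and -0.70 within the experiments. Against LY2784544 it was at -0.855 (SE 0.26, limma adjusted p = 0.212), by -1.05 and -0.66. After centring the arrays on 1 median these differences were -0.49 (limma adjusted p = 0.250) and -0.7825 (limma adjusted p = 0.208). With the experiment as a block, and no centring, both differences were called (limma adjusted p = 0.0407 and 0.0494), the second close to the threshold. Of 19 alternatives the block was the only 1 that called either, and the only 1 with a term for the experiment. Leaving out 1 array moved the difference from control to between -0.985 (without the control array of experiment 1) and -0.345 (without that of experiment 2). It moved that from LY2784544 to between -1.14 (without the combination array of experiment 2) and -0.57 (without that of experiment 1). As for MCL1, these ranges also hold the difference between experiments. Against GRN163L the combination was at -0.72 (limma adjusted p = 0.270, and 0.0726 with the block). LY2784544 alone was at 0.19 and GRN163L alone at 0.055 against control, neither called.

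BAX, the effector that moves from the cytosol to mitochondria, was at 8.0 and 8.20 in control, 8.32 and 8.28 with LY2784544, 8.07 and 7.97 with GRN163L, then 7.96 and 8.11 with the combination. Its range over the 8 arrays was 0.36. Both LY2784544 arrays were the highest, by 0.20 against control (SE 0.15, limma adjusted p = 0.649), and the combination was at -0.065, with a 95% interval from -0.42 to 0.29.

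**Figure D2:**
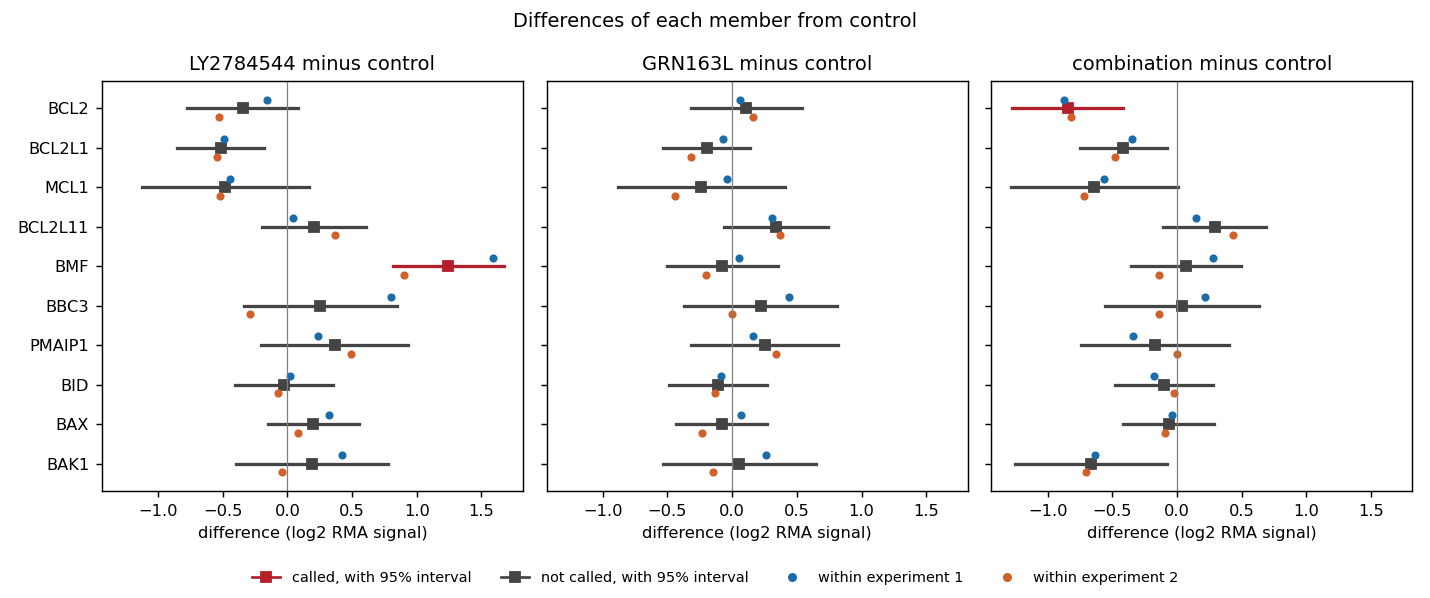
Difference from control of each member on the log2 RMA scale (x axis) in 3 comparisons. Squares are limma differences with unadjusted 95% intervals, red where the adjusted p is below 0.05, and small circles are the differences within each experiment. BMF with LY2784544 (1.245) and BCL2 with the combination (-0.845) are the only red squares.

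Counted over the family, LY2784544 against control put 6 members higher and 4 lower (7 and 3 after median centring), with a median of 0.195 against -0.04 over all genes tested. In 6 of the 10 the arrays of the groups did not overlap, as in 42.2% of all genes tested. The combination against control put 3 members higher and 7 lower (6 and 4 after median centring), with a median of -0.135 against -0.065 over all genes, and BCL2 was the 1 member called, where 3.47% of all genes were called. Here 5 members did not overlap with control, as in 53.7% of all genes tested. With the experiment as a block 3 members were called as lower, BCL2, MCL1 and BAK1, against 8.15% of all genes called as lower and 11% called in either direction in that fit. LY2784544 and the combination share their control arrays, so their differences from control are not independent of each other.

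With GRN163L against control limma called 0 of 10 members, as it called 0% of all genes, and 0 members had an unadjusted p below 0.05, against 595 of all genes. The block gave 0 members called as well (0% of all genes), with 1028 genes at an unadjusted p below 0.05 and 0 of them members. The members' differences lay between -0.24 and 0.34, with a median of -0.01 against 0.005 over all genes, and 3 members did not overlap with control, as in 33.8% of all genes tested. In the combination against LY2784544 limma called 0 members (0.31% of all genes), 3 had an unadjusted p below 0.05, as had 13.5% of all genes, and 7 did not overlap, as in 41.7% of all genes. The block called BMF and BAK1, both lower, in that comparison, against 1.6% of all genes. The combination against GRN163L gave 0 members called (0.541% of all genes), 2 at an unadjusted p below 0.05, against 14.4% of all genes, and 6 that did not overlap, as in 45.8% of all genes. There the block called BCL2, against 1.69% of all genes. No member was called for the interaction, with or without the block (0% of all genes), and 3 members without it had an unadjusted p below 0.05, namely BCL2, BMF and BAK1, against 3.69% of all genes.

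The experiments were apart in some members. MCL1 was 0.49 higher in experiment 2 than in experiment 1 (SE 0.11, limma adjusted p = 0.0901), PMAIP1 0.4125 higher (SE 0.10, limma adjusted p = 0.102) and BAK1 0.405 higher (SE 0.12, limma adjusted p = 0.123). Each was higher in experiment 2 in all 4 groups, and none passed, in a comparison where 0.247% of all genes were called. Across the 8 arrays, which share the experiments and treatments, the highest correlations between members were those of BMF with BAX (Pearson's r = 0.84) and of PMAIP1 with BAK1 (r = 0.84), and the lowest were those of BCL2L11 with BID and with MCL1 (r = -0.68 for each).

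**Figure D3:**
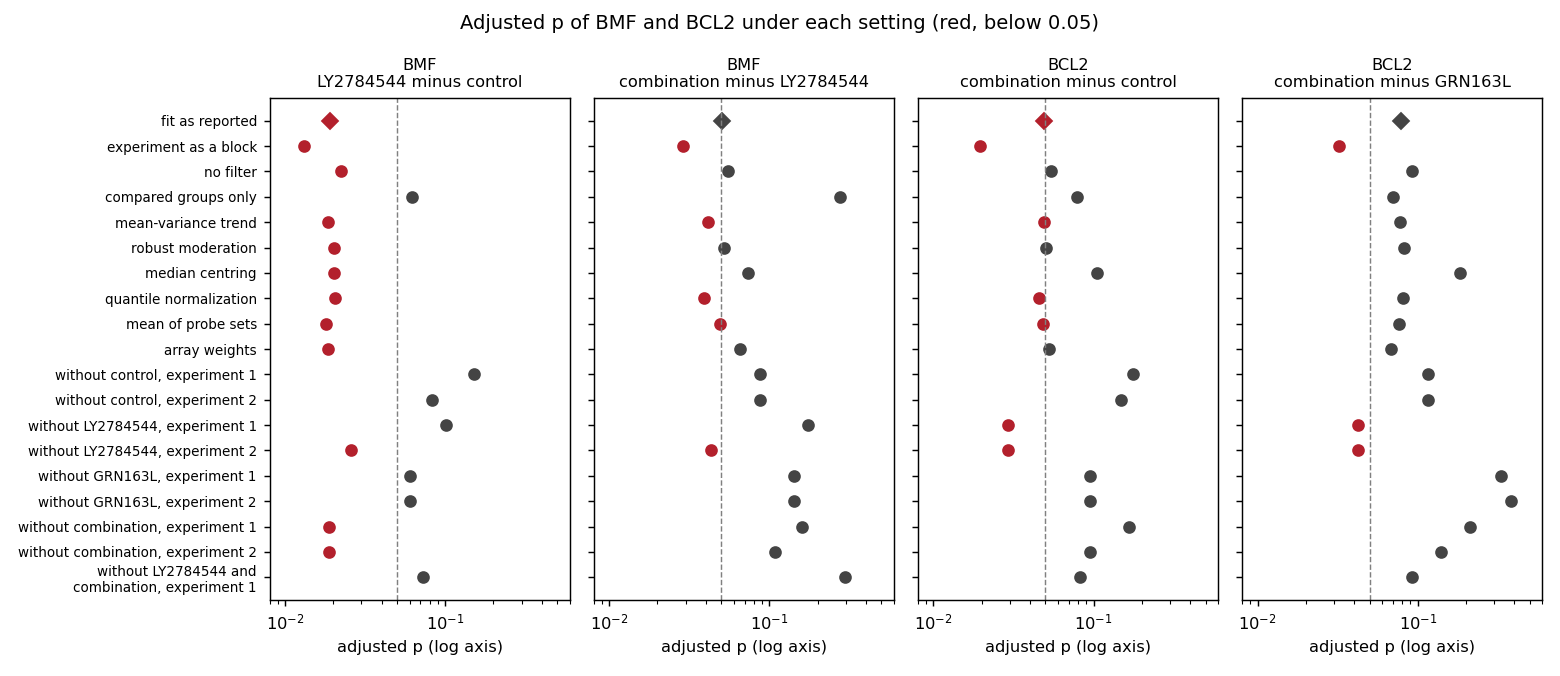
Adjusted p (x axis, log scale) of 4 differences of BMF and BCL2 under each setting of the analysis (y axis). Diamonds are the fit as reported, circles the alternatives, red lies below the dashed line at 0.05, and settings in which the gene was not tested have no point. The reported values of BCL2 for the combination against control (0.0492) and of BMF for the combination against LY2784544 (0.0503) lie next to the line on either side.

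The genes whose log2 values followed BMF most closely over the 8 arrays, out of 12569 compared, were CDC42EP1 (Pearson's r = 0.97), IRAK1 (r = 0.97) and JUP (r = 0.97). IRAK1, a kinase of interleukin-1 and Toll-like receptor signalling, ranged over 0.57, CDC42EP1, an effector of the CDC42 GTPase, over 2.50 and JUP, the junction protein plakoglobin, over 2.29. For BCL2 they were ADAMTSL5 (r = 0.99), PCBD1 (r = 0.97) and PRSS57 (r = 0.97). They were picked as the highest of many correlations over 8 arrays, with 47 genes above 0.9 for BMF and 91 for BCL2.

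The other genes of the pathway were read from 9 lists of 87 genes, of which 78 had a probe set of their own and 72 were tested. BNIP3 and the PIM kinases were the only ones called in a comparison with control. With LY2784544 limma called 1 of the 72 (1.39%), against 1.27% of all genes. With the combination it called 3 (4.17%), against 3.47% of all genes, so that both shares were near the background. BNIP3, a BH3-containing mitophagy receptor, was at 11.195 ± 0.50 in control and fell to 8.205 ± 0.62 with LY2784544 (-2.99, SE 0.39, limma adjusted p = 0.0112) and to 9.035 ± 0.64 with the combination (-2.16, SE 0.39, limma adjusted p = 0.0258). It was 1 of 7 tested pro-apoptotic and BH3-only relatives, of which 0 were called higher and 1 lower in each of these comparisons. By sign 2 were higher and 5 lower with LY2784544, and 3 higher and 4 lower with the combination. The median of the list was -0.07 with LY2784544 and -0.17 with the combination. The fall of BNIP3 with LY2784544 was called in 17 of 19 alternatives, all but those without the control array of experiment 1 (-2.635, limma adjusted p = 0.0967) or 2 (-3.345, limma adjusted p = 0.0657). That with the combination was called in 14 of 19. It lost its call without either control array (limma adjusted p = 0.130 and 0.0801), without either GRN163L array (0.0608 for each) and without the combination array of experiment 1 (-1.705, limma adjusted p = 0.106).

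**Figure D4:**
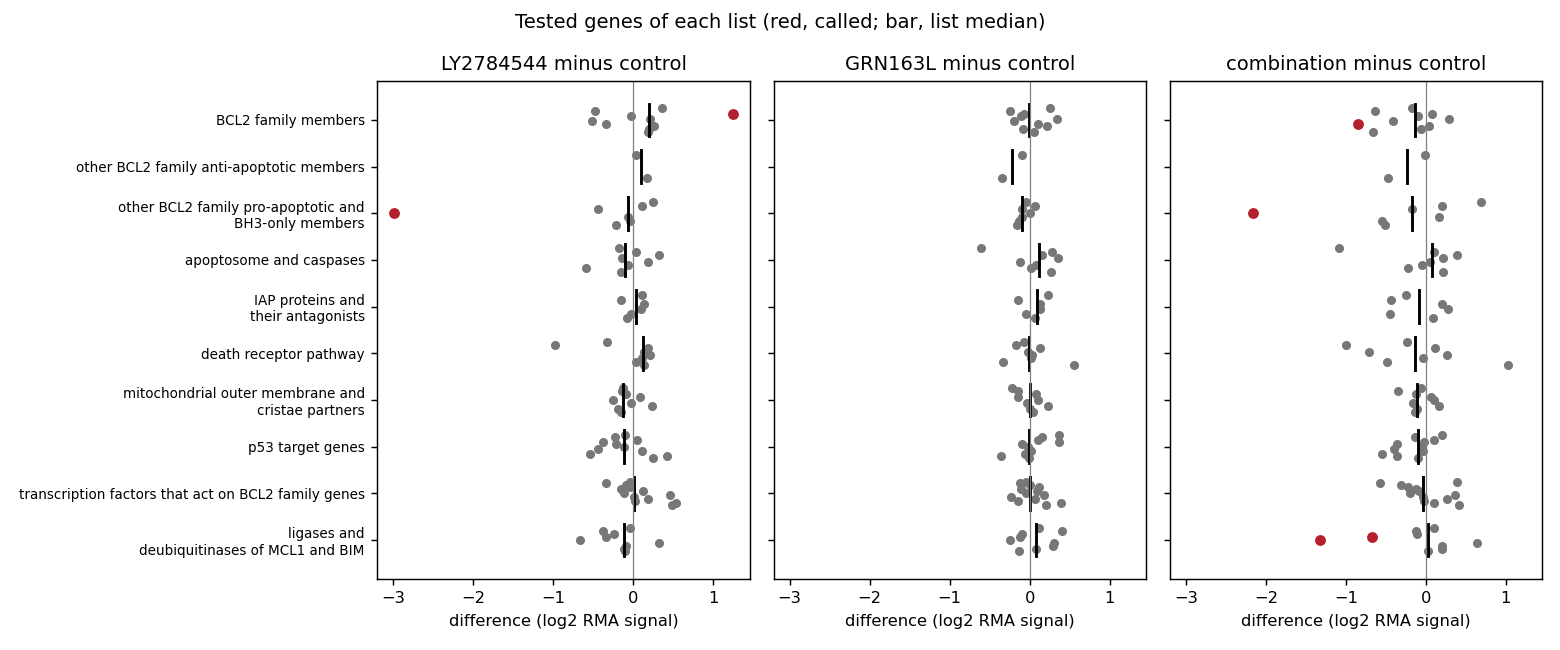
Difference from control on the log2 RMA scale (x axis) of each tested gene of the 10 members and the 9 pathway lists (y axis) in 3 comparisons. Points are genes, red where called, and black bars are list medians. Red points are BMF and BNIP3 with LY2784544, none with GRN163L, and BCL2, BNIP3, PIM1 and PIM2 with the combination.

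PIM1 and PIM2, STAT-induced kinases that phosphorylate BAD, were listed with the enzymes that act on MCL1 and BIM. PIM1 fell from 12.015 ± 0.01 to 10.695 ± 0.16 with the combination (-1.32, SE 0.16, limma adjusted p = 0.00696) and PIM2 from 11.315 ± 0.02 to 10.635 ± 0.06 (-0.68, SE 0.14, limma adjusted p = 0.0423). PIM1 also fell in the combination against GRN163L (-1.07, SE 0.16, limma adjusted p = 0.0308). Of the 9 tested genes of this list 0 were called higher and 2 lower with the combination against control. By sign 5 were higher and 4 lower, and the list's median was 0.02. The fall of PIM1 against control was called in 18 of 19 alternatives, all but that without the control array of experiment 2 (-1.325, limma adjusted p = 0.0553). PIM2 was called in 7 of 19, and in none of the 8 fits without 1 array. It also lost its call after median centring (-0.505, limma adjusted p = 0.108) and quantile normalization (-0.583, limma adjusted p = 0.0669). The same held with the compared groups only (limma adjusted p = 0.108) and without the experiment 1 arrays of LY2784544 and the combination (-0.725). Against GRN163L, PIM1 was called in 9 of 19 alternatives, and was not without 1 array of the control, GRN163L or combination groups. There it also lost its call after median centring (-0.88, limma adjusted p = 0.103) and quantile normalization (-1.04, limma adjusted p = 0.0536). The same held with the compared groups only (limma adjusted p = 0.0695) and without the experiment 1 arrays of LY2784544 and the combination (-1.185).

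In the other 7 lists no gene passed in a comparison with control. They held 2 further guardians, 8 apoptosome and caspase genes, 6 IAP genes and antagonists, 8 death receptor genes, 9 membrane partners, 11 p53 targets and 13 transcription factors among the genes tested. Those with the smallest p in each are given as values. CFLAR, a caspase 8 inhibitor of the death receptor pathway, was at 1.03 with the combination (limma adjusted p = 0.0686, and 0.0436 with the block). STAT5B, which JAK2 activates, was at -0.575 with the combination (limma adjusted p = 0.0731, and 0.0368 with the block). CYCS, the cytochrome c gene, was at -1.09 with the combination (limma adjusted p = 0.0971, and 0.0320 with the block), by -1.62 and -0.56 within the experiments. The rest passed in neither fit. DIABLO, an antagonist of IAP proteins, was at -0.435 with the combination (limma adjusted p = 0.218), and VDAC2, the channel that holds BAK1 in the outer membrane, at -0.345 (limma adjusted p = 0.201). BCL2L12 was at -0.47 with the combination (limma adjusted p = 0.270), and GADD45A, from the list of p53 targets, at -0.44 with LY2784544 (limma adjusted p = 0.333). Of the 11 tested p53 targets 4 were higher and 7 lower with LY2784544, with a median of -0.11 against -0.04 over all genes.

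The blocked fit alone called a few more of the listed genes, named here after their values were seen. With the combination against control it called 9 of the 72 listed genes tested (12.5%), where it called 11% of all genes, so that the share was near the background. Those that only this fit called were BAD, a BH3-only protein (-0.51, limma adjusted p = 0.0485 with the block and 0.0981 without), TNFRSF10A, a TRAIL receptor (-0.71, limma adjusted p = 0.0258 and 0.0961), and HUWE1, a ubiquitin ligase of MCL1 (0.635, limma adjusted p = 0.0421 and 0.0881), beside CFLAR, STAT5B and CYCS. With LY2784544 against control it was PIM1 (-0.665, limma adjusted p = 0.0476 and 0.0991), so that 2 of the 72 were called there, against 2.74% of all genes. In the combination against LY2784544 it was TNFRSF10A (-0.85, limma adjusted p = 0.0397 and 0.142). In the combination against GRN163L it was BNIP3 (-2.16, limma adjusted p = 0.0359 and 0.0592).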

How the data were processed

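Total RNA of 8 HEL cultures was measured on Affymetrix expression arrays, from 150 ng of RNA per the labels' protocols. The deposited values are log2 signals, made by the authors with RMA in Affymetrix Expression Console, per the submitters' processing notes. RMA forces arrays towards one distribution and compresses differences of dim probe sets. Not given in the sources used here are the program version, the genome build and whether RMA was run once over all arrays. The log base was read from the range of the values.

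Of 33297 probe sets, 19181 named 1 gene in GEO's platform annotation, 2055 several, and 12061 are unnamed here. Gene numbers of 19143 matched RefSeq. Genes with a mean under the 30th percentile (4.37) were left out. All 8 arrays entered 1 linear model of the 4 group means in limma 3.58.1 (R 4.3.3) with 4 residual degrees of freedom. It was checked on simulated data whose arrays varied independently, so the check does not cover an effect of the shared experiment. Deviations of same-experiment arrays from their group means correlated across genes at 0.10 to 0.67, and the labels name the shared experiment. Alternatives were the block, other filters, fits of the compared groups only, moderation, scaling, mean of probe sets, array weights and leaving out arrays. Only the block has a term for the experiment. The number of arrays limits the precision.

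The members, lists, motifs and tests were chosen with earlier results of these data known. The text names all members, the called genes of each list (otherwise the one with the smallest p against control), and the 3 genes closest in pattern to each called member. The comparison of the experiments and the fit that leaves out both arrays of experiment 1 that had received LY2784544 were added after the values were seen.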

Additional observations from a re-analysis of the deposited data

Results flagged for a closer look

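In 3 members the effect of an agent had opposite signs in the absence and the presence of the other agent, in both experiments. This rule was applied to the members only, so the share of all genes that meet it is not known. The interaction tests this difference, and none of the 3 passed it. BCL2 was 0.06 and 0.16 higher with GRN163L than in control in experiments 1 and 2, and the combination was at -0.71 and -0.29 against LY2784544 (interaction -0.61, limma adjusted p = 0.999). BCL2L1 was at -0.07 and -0.32 with GRN163L, and at 0.14 and 0.06 in the combination against LY2784544 (interaction 0.295, limma adjusted p = 0.999). PMAIP1 was at 0.16 and 0.34 with GRN163L, and at -0.58 and -0.49 in the combination against LY2784544. The effect of LY2784544 on PMAIP1 turned in the same way, from 0.24 and 0.49 alone to -0.50 and -0.34 in the presence of GRN163L (interaction -0.785, limma adjusted p = 0.999).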

How the results depend on the processing

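With the experiment as a replicate block, members called became 3 for the combination against control (1 without it), 2 against LY2784544 (0 without it) and 1 against GRN163L (0 without it), and the block changed no other call of a member. The count for LY2784544 against control became 0 with a filter at the 50th percentile, which left BMF and BCL2 untested, with the compared groups only, and without the experiment 1 arrays of LY2784544 and the combination. For the combination against control it became 0 with these 3 settings, with no filter (BCL2 adjusted p = 0.0543), robust moderation (0.0505), median centring (0.105) and array weights (0.0525). For the combination against LY2784544 it became 1, BMF, with a mean-variance trend (adjusted p = 0.0416), quantile normalization (0.0388) and the mean of probe sets (0.0493). Leaving out 1 array at a time gave 0 to 1 members in each of the comparisons except GRN163L against control and the interaction, where it gave 0. A lone array was then taken to vary like the other groups.

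Over all genes the block raised the counts from 160 to 345 for LY2784544, from 436 to 1382 for the combination, from 39 to 201 for the combination against LY2784544 and from 68 to 212 against GRN163L. Fitting the compared groups only gave 79, 153, 0 and 55 for these, and 6 for GRN163L against control. A filter at the 50th percentile gave 70 for LY2784544. Median centring and quantile normalization gave 36 and 39 for the combination against GRN163L. Without the experiment 1 arrays of LY2784544 and the combination the counts were 217 for the combination, 12 against LY2784544 and 6 for GRN163L. Leaving out 1 array gave 0 to 212 for LY2784544, 57 to 538 for the combination, 16 to 45 against LY2784544, 0 to 88 against GRN163L and 0 to 8 for the interaction.

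Signs that turned belonged to differences that were not called. With median centring they were BID for LY2784544 (0.0775), PMAIP1 (0.005), BID (0.075) and BAX (0.11) for the combination, and BCL2L11 (0.14) and BBC3 (0.01) for the combination against GRN163L. With quantile normalization they were BID for LY2784544 (0.03875), BAX for the combination (0.0578) and BCL2L11 against GRN163L (0.0894). Without the experiment 1 arrays of LY2784544 and the combination they were BBC3 (-0.17) and BID (0.005) for LY2784544, BBC3 (-0.02), PMAIP1 (0.11), BID (0.055) and BAX (0.01) for the combination, and BBC3 (0.15) and BID (0.05) for the combination against LY2784544.

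Leaving out 1 array, in fits without a term for the experiment, turned further signs. Such a fit leaves the experiments unbalanced, so its differences also hold any difference between experiments. For LY2784544 the ranges were -0.13 to 0.51 for BAK1, -0.10 to 0.05 for BID and -0.17 to 0.68 for BBC3. For GRN163L they were -0.265 to 0.375 for BAK1, -0.565 to 0.085 for MCL1, -0.215 to 0.065 for BMF and -0.18 to 0.02 for BAX. For the combination they were -0.07 to 0.21 for BMF, -0.08 to 0.16 for BBC3, -0.45 to 0.11 for PMAIP1, -0.255 to 0.055 for BID and -0.165 to 0.035 for BAX. Against LY2784544 they were -0.64 to 0.21 for BBC3, -0.445 to 0.125 for MCL1 and -0.23 to 0.08 for BID. Against GRN163L they were -0.19 to 0.09 for BCL2L11, -0.145 to 0.165 for BID and -0.06 to 0.09 for BAX. For the interaction they were -0.245 to 0.405 for MCL1 and -0.12 to 0.19 for BID. The cause of these changes was not tested.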
